A study of Mus musculus with 6 samples.

Results

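The 37 genes described here control entry into, passage through and exit from the cell cycle. They were taken from the count table by gene symbol, and they are 37 of its 55487 genes. The table holds bulk RNA-seq counts of aortas from 6 male mice, 3 of them Prdm16 iSM KO (Prdm16 F/F; Myh11-CreERT2) and 3 of them Control (Prdm16 W/W; Myh11-CreERT2). Both groups are C57BL/6 and both carry the tamoxifen-inducible Cre, which the Myh11 promoter drives in smooth muscle cells (SMCs) and which is Y-linked, so that only males were studied. From 8 weeks of age all mice received tamoxifen, 1 mg per mouse and day over 10 days with a break of 2 days after the first 5 injections. The aortas were taken after 2 weeks of washout and 60 further days, and their adventitia was removed, so each library is RNA of the remaining aortic wall and not of sorted SMCs. Cre removes exon 9 of Prdm16, which encodes a zinc finger transcriptional regulator, and the comparison asks how its loss in adult SMCs changes gene expression in an uninjured vessel.

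SMCs of the adult media rarely divide and can re-enter the cycle after injury. D cyclins with CDK4 or CDK6 and cyclin E with CDK2 phosphorylate RB1, which frees E2F factors to induce the genes of DNA replication. Before S phase the 6 MCM proteins are loaded on origins as a helicase, a step called licensing. Cyclin A and cyclin B with CDK1, the Aurora kinases and PLK1 then carry the cell through G2 and mitosis, while CIP/KIP and INK4 proteins hold the kinases back. Mki67 and Pcna are the usual markers of cycling cells.

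Depth was 24911609 to 40460467 counts per library. Prdm16 itself stood at 183, 223 and 179 CPM in Control 1, 2 and 3 and 93.8, 113 and 79.8 CPM in iSM KO 1, 2 and 3 (log2 fold change -1.03 ± 0.14 SE, 95% CI -1.34 to -0.72, FDR = 0.00265), with no overlap, so the libraries followed their labels. CPM is the count relative to the TMM-scaled library size, RPKM is CPM per kilobase of merged exons, and a gene "changed" where the false discovery rate (FDR) of edgeR's quasi-likelihood test over all 16565 genes tested was under 0.05. Signed differences are log2 of iSM KO over Control. The smooth muscle markers Myh11, Acta2 and Tagln were at 3617 to 10634 CPM in every library. Of the markers tested, 2 of 10 for smooth muscle rose (Myocd and Des). Those that fell were 6 of 8 for adipocytes, 1 of 10 for fibroblasts (Clec3b) and the only 1 tested for B cells (Ighm). Trac was the only marker tested for T cells, and it rose. Its counts were 3, 5 and 2 in Control and 37, 26 and 30 in iSM KO, so it passed the count filter only through iSM KO. Adipoq, an adipocyte marker that fell, had 13, 6 and 23 counts in iSM KO and passed the filter only through Control. No marker tested for endothelial cells (10), macrophages (10), erythroid cells (5), striated muscle (3) or Schwann cells (3) changed. All log2 fold changes were nonetheless negative for endothelial cells (median -0.60), macrophages (median -0.57), erythroid cells and striated muscle. All 3 were positive for Schwann cells. Of the 10 fibroblast markers 9 were negative, 8 of them at an unadjusted edgeR p under 0.05. The marker sums ranged over 116 to 234 CPM in Control and 89.7 to 99.8 CPM in iSM KO for adipocytes, 773 to 1087 CPM in Control and 645 to 789 CPM in iSM KO for fibroblasts, 596 to 1152 CPM in Control and 339.5 to 880.5 CPM in iSM KO for endothelial cells, 40.8 to 45.05 CPM in Control and 16.6 to 48.5 CPM in iSM KO for macrophages and 45.3 to 105 CPM in Control and 6.76 to 144 CPM in iSM KO for erythroid cells. They ranged over 25764 to 30415 CPM in Control and 27546 to 30342 CPM in iSM KO for smooth muscle, 4.28 to 6.12 CPM in Control and 3.44 to 4.17 CPM in iSM KO for striated muscle, 4.06 to 6.78 CPM in Control and 4.04 to 8.95 CPM in iSM KO for Schwann cells, 1.01 to 1.59 CPM in Control and 1.69 to 1.79 CPM in iSM KO for T cells and 3.04 to 8.38 CPM in Control and 1.09 to 2.05 CPM in iSM KO for B cells. Without Trac, its most abundant member, the T cell sum was 1.26 ± 0.288 CPM in Control and 0.902 ± 0.0382 CPM in iSM KO (mean ± SD, n = 3 each), a log2 ratio of -0.48 in place of 0.35. Defining markers of T and B cells were at 0 in some libraries (Cd3e in 2 and Ms4a1 in 3 of the 6), whereas the adipocyte markers Adipoq, Plin1 and Fabp4 were detected in every library. The part of these cells in the results below was not tested, and in bulk tissue fewer cells of a type cannot be told apart from less RNA per cell.

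Few of the cell cycle genes differed between iSM KO and Control. Of the 37, 29 had enough counts to be tested and 1 changed, Mcm6, which was higher in iSM KO. None fell, and none was past the fold change of 2 that the study also asked for. Over all genes tested, 7.56% changed, 4.26% upwards and 3.3% downwards, and 2.78% changed by more than 2-fold. At an unadjusted p under 0.05 there were 5 of the 29 genes, 3 higher and 2 lower, against 22.1% of all genes. The median log2 fold change was 0.0056 for the 29 genes and -0.014 for all genes, and the median size of the change was 0.16 and 0.19. The 2 groups did not overlap for 6 of the 29 genes, against 27.9% of all genes.

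**Figure D1:**
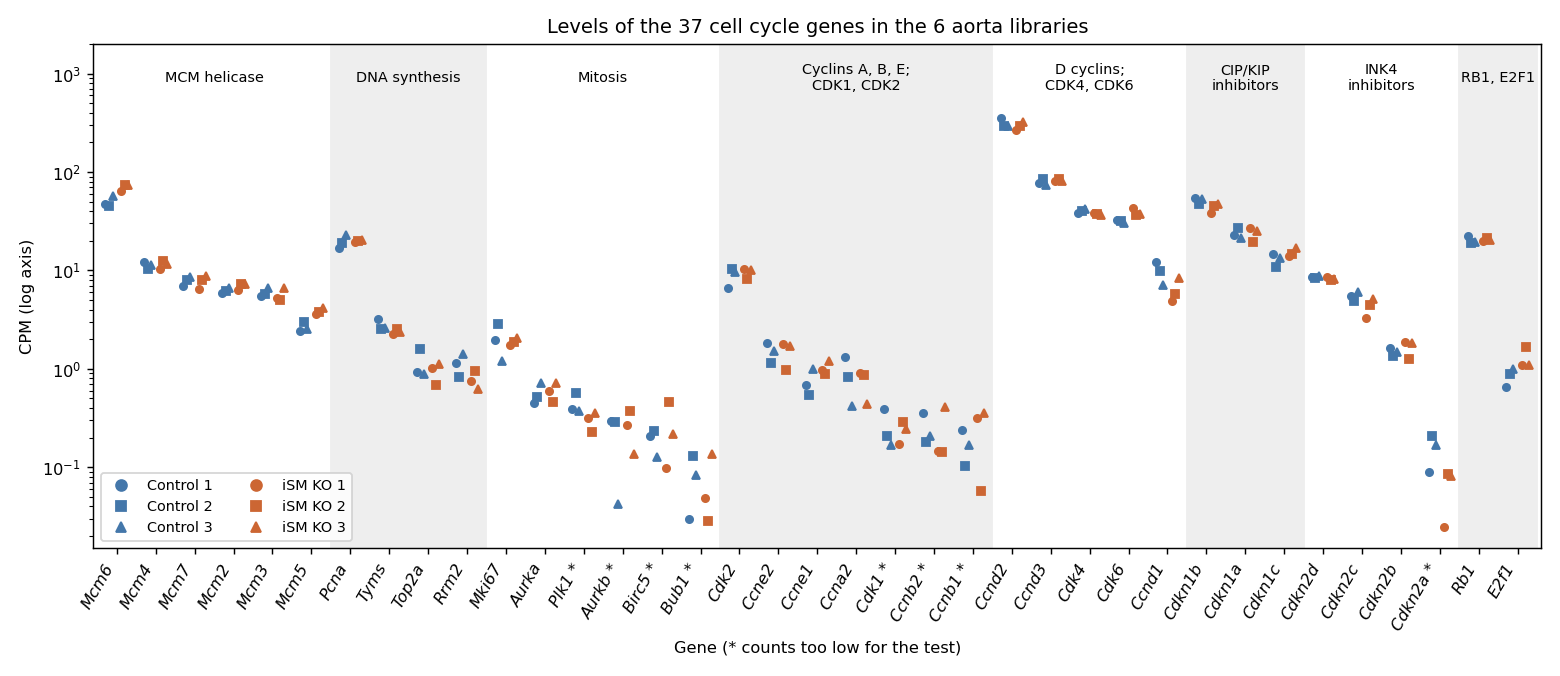
CPM of the 37 genes in each of the 6 libraries on a log axis, with genes grouped by role and sorted by mean CPM within a role. Levels run from Ccnd2 at about 300 CPM down to the mitotic genes under 1 CPM, and Control (blue) and iSM KO (orange) points interleave for most genes.

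The MCM genes, which encode the subunits of the replicative helicase, held the single changed gene. Mcm6 was at 47.05, 45.3 and 56.8 CPM in Control 1, 2 and 3 and 64.3, 73.2 and 74.03 CPM in iSM KO 1, 2 and 3. All 3 iSM KO libraries lay above all 3 Control libraries, and the means were 49.7 ± 6.19 CPM in Control and 70.5 ± 5.38 CPM in iSM KO (mean ± SD, n = 3 each). The difference was log2 fold change 0.51 ± 0.10 SE, 95% CI 0.27 to 0.74, FDR = 0.0197, or 1.42-fold. It rested on 1354 to 2704 counts per library, the most of any MCM gene. The FDR was over 0.05 when Control 1 (0.0522), iSM KO 2 (0.101) or iSM KO 3 (0.0617) was left out, so that 0 of the 37 genes then passed. Mcm6 (ENSMUSG00000026355) lies on the minus strand at chr1:128331590-128359664 of GRCm38, its merged exons cover 4666 bp, and no other annotated gene overlaps them. No other gene matches its transcripts at 95% identity over 300 bp.

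Mcm5, with 2.45, 3.02 and 2.56 CPM in Control 1, 2 and 3 and 3.58, 3.81 and 4.13 CPM in iSM KO 1, 2 and 3, was the other MCM gene whose groups did not overlap. Its difference did not pass the test (log2 fold change 0.52 ± 0.17 SE, 95% CI 0.12 to 0.91, FDR = 0.119), at 61 to 151 counts per library. The remaining MCM genes showed overlapping groups. Their log2 fold changes were 0.16 for Mcm2, -0.080 for Mcm3, 0.015 for Mcm4 and -0.0076 for Mcm7, and their FDRs ran from 0.493 to 0.983. The 95% CI for Mcm4, the tightest of these, was -0.24 to 0.27. The interval for Mcm3 was -0.44 to 0.28 and that for Mcm7 was -0.34 to 0.33. The MCM proteins assemble as a hexamer with 1 copy of each, yet their RNAs were far from equal. Per length, Mcm6 was at 12.9 RPKM on average, Mcm4 at 3.17, Mcm7 at 1.76, Mcm3 at 1.55, Mcm2 at 0.944 and Mcm5 at 0.816. The ranges over libraries of Mcm7 and Mcm3 overlapped, as did those of Mcm2 and Mcm5. In RPKM, Mcm6 stood 2.98, 3.34 and 3.86 times above Mcm4, the next highest, in the Control libraries, and 4.78, 4.56 and 4.93 times in the iSM KO libraries. The ratio was higher in every iSM KO library than in every Control library. The summed level of the 6 genes was 80.00, 78.5 and 92.5 CPM in the Control libraries and 96.4, 109.6 and 112 CPM in the iSM KO libraries, with no overlap. Without Mcm6 the sum was 32.96, 33.2 and 35.8 CPM in the Control libraries and 32.1, 36.5 and 38.4 CPM in the iSM KO libraries, and the groups overlapped.

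**Figure D2:**
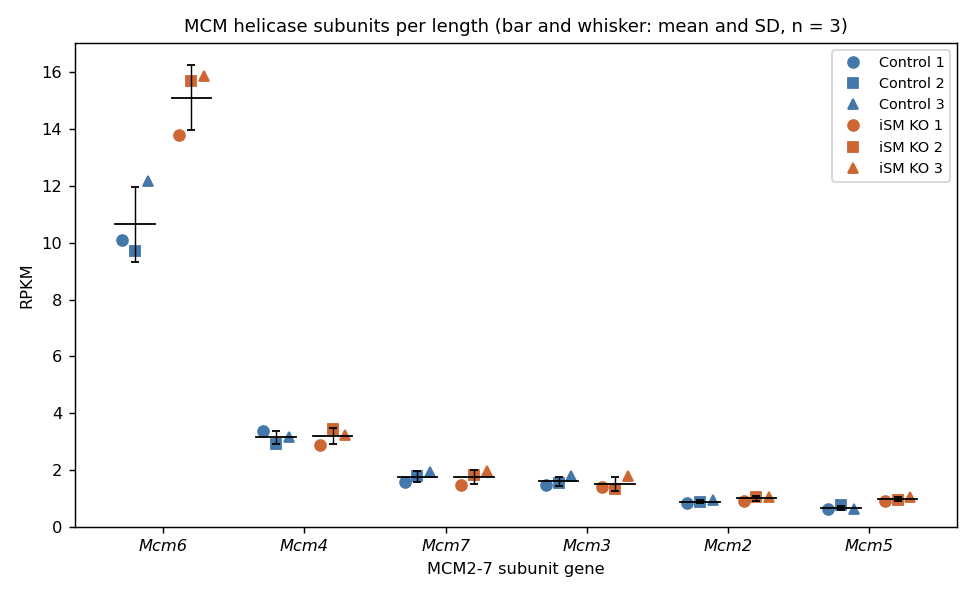
RPKM of the 6 MCM genes in each library, with the mean (bar) and SD (whisker) of the 3 libraries of a group. Mcm6 lies between 9.70 and 15.9 RPKM and above every other subunit in all libraries, and its iSM KO points lie above its Control points.

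The promoters of these genes are shown because the MCM genes are classic E2F targets, and E2F binds TTTGGCGC, TTTCGCGC or TTTCCCGC. The windows run from 250 bases before to 50 bases after the RefSeq start (GRCm38.p6) and are written 5′ to 3′ along the gene. Positions are relative to that start. GENCODE M21 starts Mcm6 at 128359664 and Mcm5 at 75109569, so the distances differ between the annotations. The GENCODE start of Mcm5 is past the end of its window. Capitals mark matches, on either strand, to those letters, to the cell cycle homology region (CHR) TTTGAA, or to the CCAAT box, and matches may overlap.
Mcm6 (chr1:128359656-128359955, minus strand): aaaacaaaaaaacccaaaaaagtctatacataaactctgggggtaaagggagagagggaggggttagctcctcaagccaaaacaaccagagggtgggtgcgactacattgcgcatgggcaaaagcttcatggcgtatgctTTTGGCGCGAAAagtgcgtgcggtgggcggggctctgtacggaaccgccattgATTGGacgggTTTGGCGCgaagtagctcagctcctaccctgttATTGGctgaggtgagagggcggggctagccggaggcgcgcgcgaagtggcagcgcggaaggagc
Mcm5 (chr8:75109259-75109558, plus strand): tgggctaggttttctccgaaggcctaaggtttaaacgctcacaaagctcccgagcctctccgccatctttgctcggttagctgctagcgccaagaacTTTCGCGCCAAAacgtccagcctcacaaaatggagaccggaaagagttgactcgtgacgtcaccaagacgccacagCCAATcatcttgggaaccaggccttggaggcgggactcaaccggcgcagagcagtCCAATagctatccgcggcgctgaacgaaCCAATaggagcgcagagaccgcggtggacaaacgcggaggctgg
Both windows hold the 12 bases TTTGGCGCGAAA, in which 2 of the E2F letters overlap on opposite strands, Mcm6 as written from position -110 relative to the start and Mcm5 as the reverse complement from position -153. This stretch was looked up after the values of both genes had been seen. It was taken from their windows, so Mcm6 and Mcm5 hold it by construction. Promoters of 4 of 27025 genes (0.0148%) hold it, the others being Mycn and Msh3, a mismatch repair gene. Mycn, which passed the count filter only through iSM KO, rose from few counts, in a call that depended on the test, as given below. Msh3 was at 8.96, 8.82 and 9.94 CPM in the Control libraries and 5.40, 7.79 and 7.15 CPM in the iSM KO libraries, log2 fold change -0.45, FDR = 0.128. Whether the stretch bears on any of these values was not tested.

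Promoter windows were on hand for 29 of the 37 genes. An E2F match was found in 7 of the 29 (24.1%), against 2.12% of all 27025 genes with a window. These were Mcm3, Mcm5, Mcm6, Mcm7, Cdk1, Cdk2 and Cdkn2a. The CHR, which directs expression to G2 and mitosis, was in 8 of 29 (27.6%), against 20.2% of all genes. CCAAT boxes, bound by NF-Y, were in 21 of 29 (72.4%), against 41.1%. When only the bases before the start were searched, the counts were 6, 6 and 19 of 29. For E2F these were 20.7% against 1.78% of all genes, and for CCAAT boxes 65.5% against 37.5%. For the CHR they were 20.7% against 18.3%, so the share among the members was then close to that of all genes.

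Among the DNA synthesis genes, Pcna, the sliding clamp of DNA polymerase, did not pass the test. It was at 17.1, 19.2 and 23.1 CPM in Control 1, 2 and 3 and 19.6, 20.03 and 20.4 CPM in iSM KO 1, 2 and 3. The iSM KO values fell inside the Control range (log2 fold change 0.017 ± 0.12 SE, 95% CI -0.25 to 0.28, FDR = 0.952), an interval that spans 0.84-fold to 1.21-fold. Its processed copy Pcna-ps2, 99.2% identical over 781 bp, held at most 35.1 counts per library against 552 to 798 for Pcna. Tyms, thymidylate synthase, was at 3.22, 2.55 and 2.60 CPM in Control 1, 2 and 3 and 2.26, 2.52 and 2.38 CPM in iSM KO 1, 2 and 3. All Control values were above all iSM KO values, by a margin of 0.028 CPM, and the gene did not pass the test (log2 fold change -0.23 ± 0.19 SE, 95% CI -0.66 to 0.20, FDR = 0.526). Tyms had 62 to 108 counts per library. Its transcripts match those of more abundant genes, among them Reep3 (97.7% over 355 bp, 2018 to 3506 counts) and Map3k2 (95.5% over 357 bp, 1579 to 2439 counts). Whether shared reads bear on the Tyms values was not tested. Rrm2, a subunit of ribonucleotide reductase, and Top2a, topoisomerase II alpha, were near 1 CPM. Rrm2 was at 1.13, 0.833 and 1.43 in the Control libraries and 0.761, 0.946 and 0.630 in the iSM KO libraries (log2 fold change -0.52, FDR = 0.365), and Top2a was at 0.925, 1.59 and 0.881 in the Control libraries and 1.03, 0.688 and 1.12 in the iSM KO libraries (log2 fold change -0.27, FDR = 0.680). Both sets of values overlapped between the groups. Summed without Pcna, Tyms, Rrm2 and Top2a gave 5.28, 4.97 and 4.91 CPM in the Control libraries and 4.05, 4.16 and 4.13 CPM in the iSM KO libraries, with no overlap and no test.

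Mitotic genes were close to the limit of these libraries. Mki67, which coats mitotic chromosomes and is lost in quiescent cells, was at 1.97, 2.86 and 1.22 CPM in Control 1, 2 and 3 and 1.74, 1.86 and 2.08 CPM in iSM KO 1, 2 and 3. Control 2 and Control 3 were its highest and lowest libraries, and the 3 iSM KO libraries lay between them (log2 fold change -0.11 ± 0.30 SE, 95% CI -0.79 to 0.57, FDR = 0.868). With 29 to 110 counts per library, the interval spans 0.58-fold to 1.49-fold. The promoters of Mki67 and Pcna, the marker genes of proliferation, are shown with the same marks.
Mki67 (chr7:135716330-135716629, minus strand): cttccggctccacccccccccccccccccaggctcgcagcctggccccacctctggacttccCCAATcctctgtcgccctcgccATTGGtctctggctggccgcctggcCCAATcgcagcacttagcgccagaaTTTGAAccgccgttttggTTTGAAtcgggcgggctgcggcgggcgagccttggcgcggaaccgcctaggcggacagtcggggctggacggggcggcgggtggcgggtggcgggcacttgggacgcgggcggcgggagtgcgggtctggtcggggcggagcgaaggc
Pcna (chr2:132253131-132253430, minus strand): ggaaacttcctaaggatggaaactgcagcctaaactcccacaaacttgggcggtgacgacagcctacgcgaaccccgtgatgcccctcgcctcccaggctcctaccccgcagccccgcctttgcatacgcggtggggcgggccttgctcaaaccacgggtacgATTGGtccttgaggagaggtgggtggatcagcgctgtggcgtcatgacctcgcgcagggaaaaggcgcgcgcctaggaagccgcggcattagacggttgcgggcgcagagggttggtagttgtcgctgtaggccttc
Mki67 holds 2 CHR matches, at positions -116 and -98, and 3 CCAAT boxes, whereas Pcna holds 1 CCAAT box and neither of the other motifs. GENCODE M21 starts Mki67 at 135716361 and Pcna at 132253314, so their distances too depend on the annotation. The CCAAT box of Pcna lies downstream of its GENCODE start. Aurka, an Aurora kinase of the spindle poles, had CPM values of 0.448, 0.520 and 0.713 in the Control libraries and 0.589, 0.458 and 0.712 in the iSM KO libraries (log2 fold change 0.088, FDR = 0.908). The checkpoint kinase gene Bub1, Birc5 (survivin), Aurkb and Plk1 had 1 to 22 counts per library and were not tested. Plk1, a kinase that drives mitotic entry, was at 0.388, 0.572 and 0.377 CPM in Control 1, 2 and 3 and 0.319, 0.229 and 0.356 CPM in iSM KO 1, 2 and 3. All Plk1 CPM values in iSM KO lay below those in Control, by a margin of 0.021 CPM. The counts themselves overlapped, at 13, 22 and 9 in Control and 13, 8 and 13 in iSM KO. Bub1, Birc5 and Aurkb ranged from 0.0287 to 0.458 CPM and overlapped between the groups.

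No later cyclin or kinase that could be tested changed. Cdk2, partner of cyclins E and A, was the most abundant of them at 6.69, 10.3 and 9.56 CPM in Control 1, 2 and 3 and 10.3, 8.11 and 10.02 CPM in iSM KO 1, 2 and 3. Control 1 was the lowest library and the groups overlapped (log2 fold change 0.10 ± 0.18 SE, 95% CI -0.30 to 0.50, FDR = 0.782). Ccne1 (cyclin E1) had CPM values of 0.687, 0.546 and 1.01 in the Control libraries and 0.981, 0.888 and 1.20 in the iSM KO libraries (log2 fold change 0.48, FDR = 0.413). Ccne2 (cyclin E2) and Ccna2 (cyclin A2) overlapped as well (log2 fold change -0.0059, FDR = 0.995 and log2 fold change -0.24, FDR = 0.791). Ccna2 shares 12.5% and Ccne2 17.4% of exon bases with an opposite-strand gene, and whether counting used the strand is not given in the sources used here. Cdk1 and its cyclins Ccnb1 and Ccnb2 had 2 to 15 counts per library, from 0.0573 to 0.411 CPM, and could not be tested. When genes with low counts were kept in the test, none of the 8 untested genes passed, with FDRs from 0.631 to 0.97.

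The G1 cyclins and kinases were the most abundant class. Ccnd2 (cyclin D2) led all 37 genes per length, at 32.2 (range 28.4 to 38.01) RPKM. Cdk4 at 11.9 (range 11.3 to 12.9) RPKM, Ccnd3 at 9.18 (range 8.41 to 9.68) RPKM, Cdk6 at 2.54 (range 2.18 to 3.08) RPKM and Ccnd1 at 1.70 (range 1.04 to 2.57) RPKM followed in this class. In the order of all 37, Ccnd2 stood apart, while the ranges of Mcm6, Cdk4 and Cdkn1b overlapped. Ccnd2 was at 358, 292 and 291 CPM in Control 1, 2 and 3 and 267, 291 and 319 CPM in iSM KO 1, 2 and 3. Control 1 was the highest library and the groups overlapped (log2 fold change -0.10 ± 0.11 SE, 95% CI -0.35 to 0.15, FDR = 0.634). Cdk6, the kinase partner of D cyclins, was at 32.5, 32.1 and 30.5 CPM in Control 1, 2 and 3 and 43.1, 36.9 and 37.9 CPM in iSM KO 1, 2 and 3. All 3 iSM KO libraries were above all Control libraries, and the difference did not pass the test (log2 fold change 0.31 ± 0.086 SE, 95% CI 0.12 to 0.50, FDR = 0.0634). DESeq2 put Cdk6 just past the threshold (adjusted p = 0.0494). Cdk4 and Ccnd3 had the narrowest intervals of the class, -0.26 to 0.07 for Cdk4 and -0.11 to 0.24 for Ccnd3, and neither changed (FDR = 0.486 and 0.659). Of the exon bases of Cdk4, 19.7% are shared with Tspan31 on the opposite strand.

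Ccnd1 (cyclin D1), which growth factors induce in G1, had the most negative log2 fold change of the 29 genes and was singled out after its values were seen. It was at 12.1, 9.76 and 7.17 CPM in Control 1, 2 and 3 and 4.91, 5.76 and 8.43 CPM in iSM KO 1, 2 and 3. Control 3 was below iSM KO 3, so the groups overlapped, and the test was not passed (log2 fold change -0.61 ± 0.24 SE, 95% CI -1.15 to -0.073, FDR = 0.173). Within iSM KO, Ccnd1 was lowest in library 1 and highest in library 3. The marker sums of endothelial cells, fibroblasts, macrophages and adipocytes had the same order in the iSM KO libraries, and those of the other cell types did not. Across the Control libraries Ccnd1 fell from 1 to 3. There the macrophage, erythroid and striated muscle sums fell likewise, while those of the other cell types, endothelial cells, fibroblasts and adipocytes among them, had other orders. The endothelial sum was 972, 1152 and 596 CPM in the Control libraries and 339.5, 546 and 880.5 CPM in the iSM KO libraries, and that of fibroblasts was 1087, 773 and 882 CPM in the Control libraries and 645, 694 and 789 CPM in the iSM KO libraries. The macrophage sum was 45.05, 43.2 and 40.8 CPM in the Control libraries and 16.6, 16.8 and 48.5 CPM in the iSM KO libraries, and that of adipocytes was 116, 234 and 198 CPM in the Control libraries and 89.7, 91.7 and 99.8 CPM in the iSM KO libraries. Their part in the Ccnd1 values was not tested. The exons of Ccnd1 share 23.4% of their bases with those of LTO1 on the opposite strand.

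**Figure D3:**
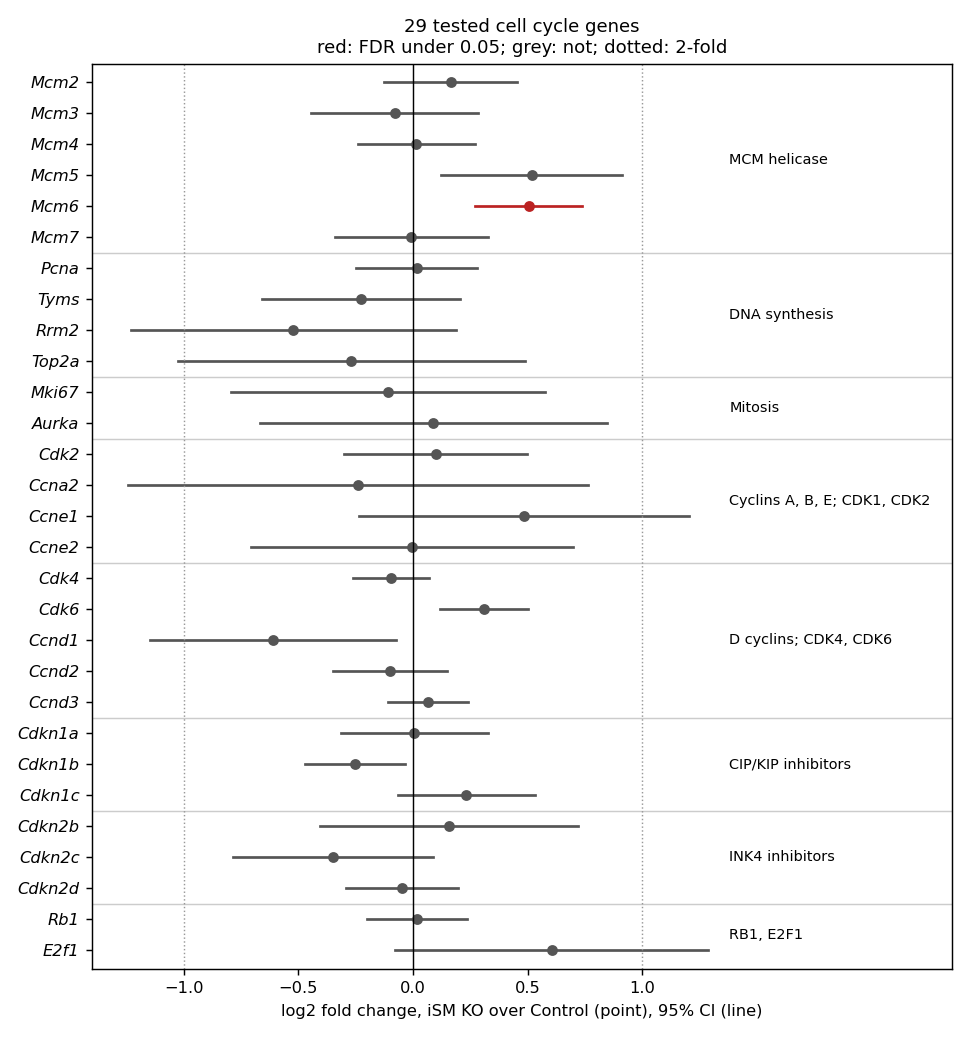
Log2 fold change (point) and 95% CI (line) of the 29 tested genes by role, with dotted lines at a 2-fold change in either direction. Mcm6 alone is red (FDR under 0.05), the intervals of Mcm5, Cdk6, Ccnd1 and Cdkn1b also leave out 0, and those of genes near 1 CPM are the widest.

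No inhibitor of cyclin-dependent kinases passed the test. Cdkn1b (p27), the most abundant of the CIP/KIP genes and a brake on CDK2 in resting cells, was at 54.2, 47.8 and 53.2 CPM in Control 1, 2 and 3 and 38.3, 45.02 and 47.04 CPM in iSM KO 1, 2 and 3. All iSM KO values lay below all Control values, with a gap of 0.79 CPM, and the difference did not pass the test (log2 fold change -0.25 ± 0.10 SE, 95% CI -0.47 to -0.034, FDR = 0.166). Cdkn1a (p21), the p53 target that blocks CDK2, overlapped between the groups, with CPM values of 23.02, 27.3 and 21.2 in the Control libraries and 27.1, 19.5 and 25.3 in the iSM KO libraries (log2 fold change 0.0056 ± 0.14 SE, 95% CI -0.32 to 0.33, FDR = 0.987). Cdkn1c (p57) had CPM values of 14.8, 10.9 and 13.3 in the Control libraries and 14.2, 14.8 and 16.7 in the iSM KO libraries (log2 fold change 0.23, FDR = 0.340), and 30.7% of its exon bases lie opposite an antisense gene. Of the INK4 genes, which bind CDK4 and CDK6, Cdkn2d (p19) was the highest at 8.57, 8.33 and 8.72 CPM in Control 1, 2 and 3 and 8.64, 7.94 and 8.16 CPM in iSM KO 1, 2 and 3. Its 6 libraries lay within 7.94 to 8.72 CPM (log2 fold change -0.049 ± 0.11 SE, 95% CI -0.29 to 0.19, FDR = 0.827). Cdkn2c (p18) had a log2 fold change of -0.35 (FDR = 0.327) and Cdkn2b (p15) of 0.16 (FDR = 0.755), both with overlapping groups. Cdkn2a, which encodes p16 and p19ARF and marks senescent cells, had 1 to 8 counts per library. It was at 0.0896, 0.208 and 0.168 CPM in Control 1, 2 and 3 and 0.0245, 0.0860 and 0.0821 CPM in iSM KO 1, 2 and 3. Its counts were 3, 8 and 4 in Control and 1, 3 and 3 in iSM KO, too few for the test. Control 1 was tied with iSM KO 2 and 3 in counts, so the CPM values of the groups were separated only by the scaling to library size.

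Rb1, the pocket protein that restrains E2F, overlapped between the groups at 22.5, 18.9 and 19.6 CPM in Control 1, 2 and 3 and 19.9, 21.4 and 20.4 CPM in iSM KO 1, 2 and 3 (log2 fold change 0.017 ± 0.10 SE, 95% CI -0.20 to 0.23, FDR = 0.942). E2f1, an activating E2F, was at 0.657, 0.885 and 1.01 CPM in Control 1, 2 and 3 and 1.10, 1.66 and 1.10 CPM in iSM KO 1, 2 and 3. The lowest iSM KO library was above the highest Control library by 0.089 CPM, and the difference did not pass the test (log2 fold change 0.60 ± 0.30 SE, 95% CI -0.080 to 1.29, FDR = 0.281), at 22 to 58 counts per library.

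The spread between mice was summarised for the tested genes. The median SD of log2 CPM was 0.171 in Control and 0.151 in iSM KO for the 29 genes, and 0.166 and 0.119 for all genes tested.

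A further 179 genes of the same machinery, in 8 lists that share no gene with the 37, were examined to place these values. Of these, 154 could be tested, and 4 rose and 8 fell. That is 12 of 154 beside the 7.56% of all genes, and the median log2 fold change of the lists was -0.034. In the RB, E2F and DREAM list (16 of 18 tested) and in the origin licensing and firing list (15 of 17 tested) none changed, and 3 and 1 genes had an unadjusted p under 0.05. The 2 most abundant genes of the former were Rbbp4, a histone chaperone (log2 fold change 0.24, FDR = 0.126), and Rbl2, the pocket protein p130 (log2 fold change -0.11, FDR = 0.595). In the latter they were the origin recognition subunits Orc3 (log2 fold change -0.086, FDR = 0.645) and Orc4 (log2 fold change -0.30, FDR = 0.258). DNA synthesis genes (27 of 27 tested) gave 1 lower gene, mitosis genes (29 of 47) 2 lower, and CDK control genes (21 of 21) 1 higher and 1 lower. Among p53 targets (23 of 24) 2 rose and 1 fell, in the MYC and MAX list (8 of 10) 1 rose, and in the growth arrest list (15 of 15) 3 fell.

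**Figure D4:**
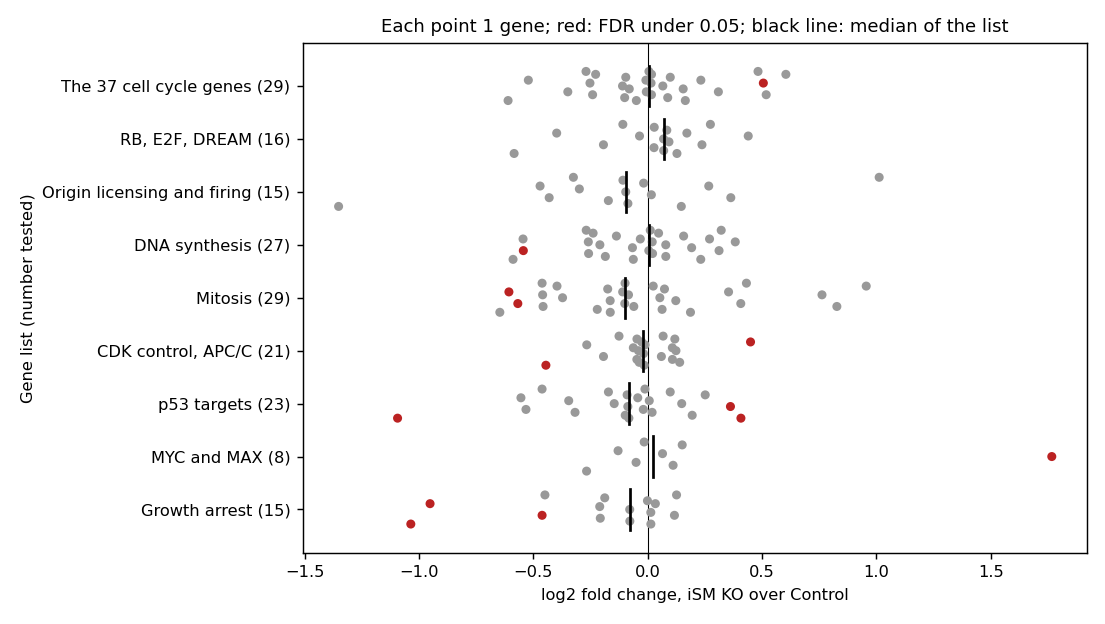
Log2 fold change of each tested gene in the 37 cell cycle genes and in the 8 further lists, with red points for an FDR under 0.05 and a black line at the list median. The medians lie between -0.10 and 0.07, and the red points are 1 of the 37 genes and 12 of the further genes.

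In the growth arrest list 3 of 15 tested genes fell, and among p53 targets 1 of 23 fell and 2 rose. Of all genes tested, 3.3% fell and 4.26% rose. The lists were chosen with earlier results of these data known, so these shares describe the lists and do not test them. Trp53inp1, a p53-induced gene that promotes arrest and cell death, was at 102, 85.1 and 122 CPM in Control 1, 2 and 3 and 47.9, 50.8 and 45.9 CPM in iSM KO 1, 2 and 3 (log2 fold change -1.09 ± 0.12 SE, 95% CI -1.37 to -0.81, FDR = 0.00118). Ndrg1, a stress-responsive growth suppressor, was at 113, 116 and 98.5 CPM in Control 1, 2 and 3 and 47.8, 52.96 and 58.9 CPM in iSM KO 1, 2 and 3 (log2 fold change -1.04 ± 0.10 SE, 95% CI -1.26 to -0.81, FDR = 0.000559). Btg2, an antiproliferative gene induced by p53, was at 91.2, 149 and 91.5 CPM in Control 1, 2 and 3 and 65.6, 57.2 and 49.03 CPM in iSM KO 1, 2 and 3 (log2 fold change -0.95 ± 0.19 SE, 95% CI -1.39 to -0.51, FDR = 0.0197). For each of the 3, all iSM KO libraries lay below all Control libraries. Tob1, of the same antiproliferative family as Btg2, fell by less, with 36.4 ± 2.86 CPM in Control and 26.4 ± 2.09 CPM in iSM KO (mean ± SD, n = 3 each) (log2 fold change -0.46, FDR = 0.0200). The genes that fell also included 4 of the DNA synthesis, mitosis and CDK control lists. Cdc25b, the phosphatase that activates CDK1, was at 19.3, 20.01 and 18.7 CPM in Control 1, 2 and 3 and 14.2, 12.5 and 12.5 CPM in iSM KO 1, 2 and 3 (log2 fold change -0.57 ± 0.10 SE, 95% CI -0.78 to -0.35, FDR = 0.00816). Pttg1 (securin), which holds back the separation of sister chromatids until anaphase, was at 16.8, 16.4 and 18.95 CPM in Control 1, 2 and 3 and 12.8, 10.3 and 11.2 CPM in iSM KO 1, 2 and 3 (log2 fold change -0.61 ± 0.11 SE, 95% CI -0.87 to -0.35, FDR = 0.0138). Both had no overlap between the groups. Dut, the dUTPase that keeps uracil out of DNA, fell, with 7.49 ± 0.640 CPM in Control and 5.14 ± 0.287 CPM in iSM KO (mean ± SD, n = 3 each) (log2 fold change -0.54, FDR = 0.0398). Cdc14b, a phosphatase of the CDK control list, fell, with 18.7 ± 1.23 CPM in Control and 13.7 ± 0.604 CPM in iSM KO (mean ± SD, n = 3 each) (log2 fold change -0.44, FDR = 0.0236).

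The lowest log2 fold change of these lists was that of Gmnn, geminin, which blocks relicensing of origins until mitosis ends, and it was singled out after its values were seen. It had CPM values of 1.22, 0.651 and 1.34 in Control 1, 2 and 3 and 0.270, 0.344 and 0.630 in iSM KO 1, 2 and 3. The groups did not overlap and the test was not passed (log2 fold change -1.35 ± 0.42 SE, 95% CI -2.31 to -0.39, FDR = 0.0970), at 11 to 41 counts per library.

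The lists held 4 genes that rose. Anapc7, a subunit of the anaphase-promoting complex, was at 40.7, 50.3 and 52.4 CPM in Control 1, 2 and 3 and 63.8, 66.8 and 65.3 CPM in iSM KO 1, 2 and 3 (log2 fold change 0.45 ± 0.10 SE, 95% CI 0.23 to 0.67, FDR = 0.0270). Zmat3, an RNA-binding p53 target, was at 32.6, 32.1 and 31.6 CPM in Control 1, 2 and 3 and 46.3, 42.7 and 38.7 CPM in iSM KO 1, 2 and 3 (log2 fold change 0.41 ± 0.085 SE, 95% CI 0.21 to 0.60, FDR = 0.0222). Phlda3, a p53 target that limits AKT, rose, with 29.5 ± 2.28 CPM in Control and 37.9 ± 1.19 CPM in iSM KO (mean ± SD, n = 3 each) (log2 fold change 0.36, FDR = 0.0341). The groups overlapped for none of these. Mycn, the MYC family member of embryonic cells, was at 0.119, 0.182 and 0.168 CPM in Control 1, 2 and 3 and 0.662, 0.573 and 0.383 CPM in iSM KO 1, 2 and 3, which is 4 to 27 counts per library (log2 fold change 1.77 ± 0.41 SE, 95% CI 0.84 to 2.69, FDR = 0.0329). Mycn passed the count filter only through iSM KO, the group where it was higher. At this depth the Mycn call depended on the test, with an adjusted p of 0.0801 in DESeq2 and an edgeR FDR of 0.0682 when no filter on low counts was applied. Trp53inp1 and Ndrg1 kept an FDR under 0.05 whichever library was left out. Other calls were lost when 1 library was left out, with the edgeR FDR then reached given in brackets. Without Control 1 these were Dut (0.101), Cdc14b (0.0623), Phlda3 (0.0779), Mycn (0.0996) and Tob1 (0.0581), and without Control 2 Mycn alone (0.0583). Without Control 3 they were Dut (0.0841), Cdc14b (0.0552), Zmat3 (0.0605), Phlda3 (0.0718) and Mycn (0.0826). Leaving out iSM KO 1 gave Dut (0.150), Anapc7 (0.0802), Cdc14b (0.0569), Zmat3 (0.0986), Phlda3 (0.0909) and Mycn (0.122). Leaving out iSM KO 2 gave Dut (0.136), Cdc25b (0.0552), Pttg1 (0.0733), Anapc7 (0.124), Cdc14b (0.114), Zmat3 (0.110), Phlda3 (0.142), Mycn (0.119), Btg2 (0.0826) and Tob1 (0.109). Leaving out iSM KO 3 gave Dut (0.0796), Anapc7 (0.0687), Cdc14b (0.0690), Phlda3 (0.106), Btg2 (0.0537) and Tob1 (0.0533).

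**Figure D5:**
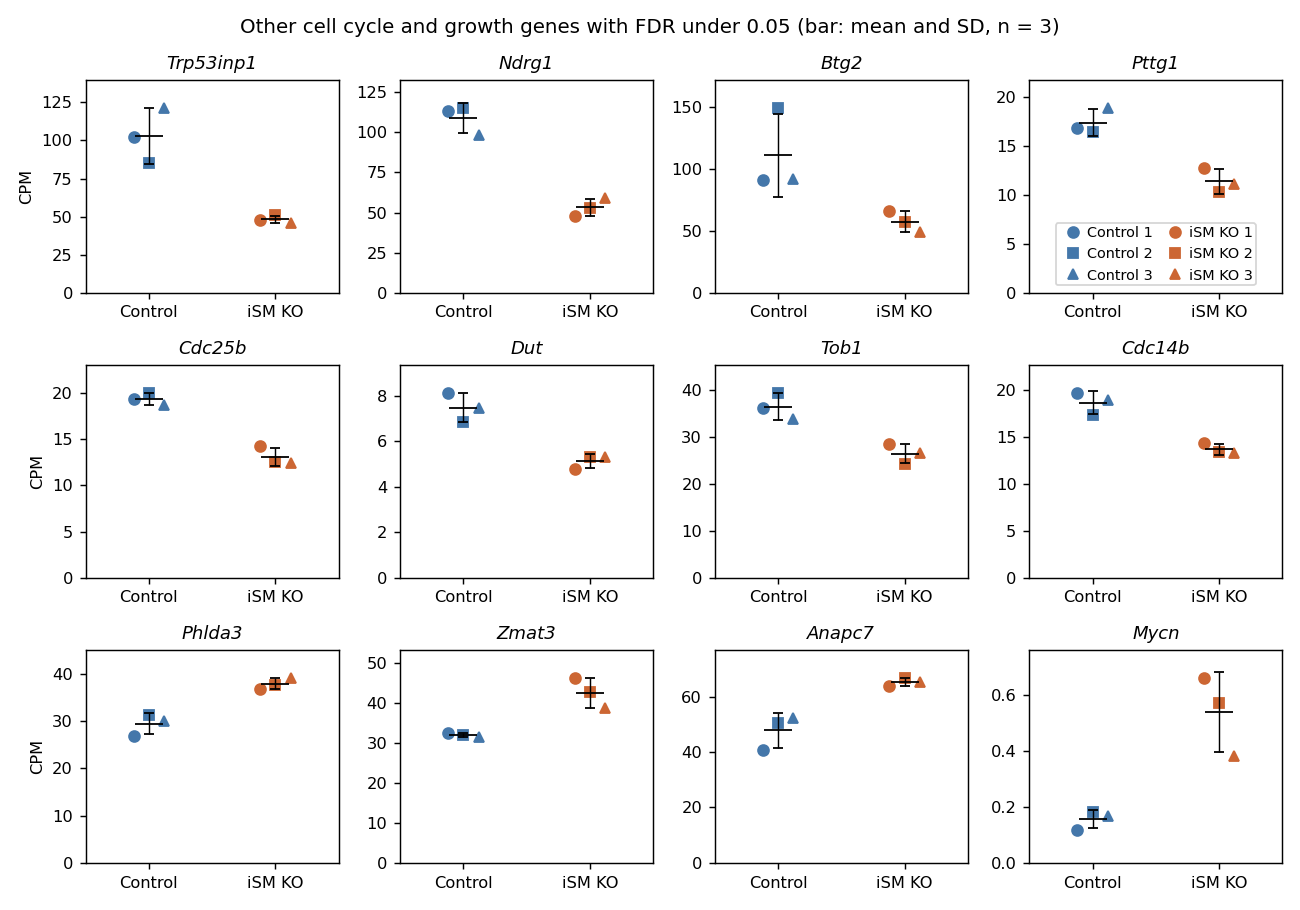
CPM by library of the 12 further genes with an FDR under 0.05, with the mean and SD of each group, each panel on its own axis from 0. The 8 genes from Trp53inp1 to Cdc14b are lower in all 3 iSM KO libraries, and Phlda3, Zmat3, Anapc7 and Mycn are higher in all 3.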

How the data were processed

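Total RNA of aortas cleared of adventitia, from 3 mice a group, was depleted of ribosomal RNA and sequenced as paired-end reads of 150 bp. Per the labels, reads were converted with bcl2fastq and processed with DRAGEN against mm10. The authors mapped and quantified reads against Ensembl release 101, and the deposited values are estimated counts per gene, neither rounded nor normalized, with no gene filter. How reads shared between genes were assigned, and whether the strand was used, is not given in the sources used here. No column was left unassigned to a sample.

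Counts were rounded, and a gene entered the test where every library of Control, of iSM KO or of both had more than 10 counts. Groups were compared with edgeR 4.0.16 in R 4.3.3 (TMM, glmQLFit, glmQLFTest, 3 against 3, no covariates), with Benjamini-Hochberg adjustment over all genes kept. SE is the log2 fold change over the root of the F statistic. Alternatives were DESeq2 1.42.0, limma-voom 3.58.1, DESeq2 size factors, no filter, filterByExpr, the replicate number as a block, TMM without Rn7s1, Rn7s2 and Rn7sk (22.8% to 28.1% of counts), and each library left out. DESeq2 was the tool of the study. The procedure was tested on simulated counts. No pair of libraries differed by as little as sampling noise.

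The 37 genes, the lists of 179 further genes and the markers of 10 cell types were chosen with earlier results of these data known. Values per library are given for Mki67, Pcna, genes past the FDR, genes whose groups do not overlap and the most abundant gene of each role, and from each further list for genes past the FDR (at most 6) or, with none, its 2 most abundant genes. Other genes with such values were added after they were seen. Gene models are from GENCODE M21 (GRCm38), and near-identical copies were sought with blastn 2.17.0. Promoters are from RefSeq (GRCm38.p6) and covered 29 of 37 genes. Counts are per gene, so the deleted exon of Prdm16 was not analysed here.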

Additional observations from a re-analysis of the deposited data

How the results depend on the processing

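Prdm16 was lower with an FDR under 0.05 in all 13 alternative fits, at -1.17 to -0.92 on the log2 scale when 1 library was left out. Mcm6 was the only one of the 37 genes past the threshold in 9 alternatives, DESeq2 added Cdk6 (2 genes), and 0 genes passed without Control 1, iSM KO 2 or iSM KO 3. With 1 library left out, 0 to 1 of the 37 rose and 0 fell. Of the further lists, 0 to 3 genes rose and 2 to 9 fell, and by list the counts were 0 to 1 (CDK control, each direction), 0 to 1 (DNA synthesis, lower), 1 to 3 (growth arrest, lower), 0 to 2 (mitosis, lower), 0 to 1 (MYC and MAX, higher), 0 to 2 (p53 targets, higher) and 1 to 2 (p53 targets, lower). Those fits hold fewer samples. Tpx2 rose among mitosis genes (1 gene) with DESeq2, with its size factors in edgeR and with no filter. The MYC and MAX list then had 0 higher genes with DESeq2 and with no filter, and p53 targets had 2 lower genes with both. The cause was not tested. Libraries with the same replicate number did not deviate together (correlations -0.168, -0.0670 and -0.161). With the replicate number as a block, 775 genes changed in place of 1252, Mcm6 kept its call, and the further lists gave 1 higher and 5 lower genes, with 0 for CDK control and DNA synthesis (lower), MYC and MAX (higher) and p53 targets (higher). Without their most abundant gene, the log2 ratios of summed levels were 0.068 (MCM, from 0.34), -0.30 (DNA synthesis, from -0.044), 0.090 (CIP/KIP, from -0.10), -0.24 (INK4, from -0.13) and 0.60 (RB1 and E2F1, from 0.046). Over the 29 tested cell cycle genes and the 12 further genes that changed, 36 calls were lost in the fits with 1 library left out. Among the other further genes, Rrm2b fell without Control 2 (FDR = 0.0396) and Sesn2 without iSM KO 3 (FDR = 0.0489). Depth limits the rarest genes, since the 8 of the 37 not tested had at most 22 counts in any library.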
